A study of Homo sapiens with 4 samples.

Results

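The 10 genes described here lie between 10 and 40 Mb on chromosome 7 of hg38, on its short arm: *AHR*, *BZW2*, *TRA2A*, *IGF2BP3*, *HNRNPA2B1*, *CBX3*, *TAX1BP1*, *LSM5*, *ANLN* and *AVL9*. They were chosen by symbol from 28278 gene symbols in the count table, with their measured values in this same contrast already known, and were put forward as genes with lowered mRNA. All 10 were among the 15150 genes that passed the filter on low counts, and none depended on 1 group to pass it. The values below went against that description for the set as a whole. In the libraries labelled sgUSP22, 5 of the 10 lay below both control libraries, 2 lay above both and 3 overlapped with the controls, where 37.6% of all tested genes were lower and 38.3% higher without overlap. Because the genes were selected on these values, their levels and fold changes are given as a description and were not tested.

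RNA-seq was performed on polyA RNA of cells labelled HepG2, a human cell line derived from a liver tumour, in 2 libraries of control cells and 2 libraries of cells labelled sgUSP22. Both groups carried Cas9 from a lentivirus, together with a control guide RNA or a guide RNA against *USP22*, and both were treated with Sorafenib, a kinase inhibitor used in liver cancer, for 24 h. The cells were populations made by lentiviral infection, and no untreated libraries were analysed here. USP22 is a ubiquitin protease of the SAGA complex that removes ubiquitin from histone H2B, and the comparison asked how its loss alters transcription under Sorafenib.

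The libraries held 62030307 to 64728272 counts. *USP22* mRNA was counted 16450 and 16537 times in the controls, and 20279 and 20368 times in libraries labelled sgUSP22, which was higher by 0.22 on the log2 scale (SE 0.034, edgeR adjusted p = 0.00039). The targeted mRNA was therefore not lower in the libraries labelled as knockout. The authors report that Western blots, which read the protein, showed the knockout in their cells. Cas9 directed by a guide RNA cuts DNA, so the mRNA level does not measure the protein, and every direction below is between libraries as they are labelled. Of 18 hepatocyte markers, 11, among them *ALB*, *APOA1* and *APOB*, had 0 counts in all 4 libraries. For counting error alone, a 0 allows up to 3 counts per library. None of the 18 exceeded 19 counts. These values went against the label HepG2, and which cells were measured was not settled here. The summed level of the 18 was 0.197 to 0.385 CPM (counts scaled to a fixed library total) in the control libraries and 0.356 to 0.685 CPM in those labelled sgUSP22. *KRT8*, *KRT18* and *VIM* were abundant, while *EPCAM*, *CDH1* and *KRT19* had 0 to 4 counts and *COL1A2* had 7 at most. The summed levels of the 5 epithelial and the 5 mesenchymal markers were lower in both libraries labelled sgUSP22, at 1315 to 1373 against 1756 to 1795 CPM and at 993 to 1016 against 1275 to 1288 CPM. These sums rested mostly on *KRT8*, *KRT18* and *VIM*, and *COL1A1* went from 3492 and 3426 to 3738 and 4125 counts. The endothelial and leukocyte markers reached at most 17 and 13 counts. The part of these differences in the results below was not tested. In bulk RNA, fewer cells of a type and less RNA per cell cannot be told apart.

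The 10 genes have unrelated functions and share a stretch of chromosome. *AHR* encodes the aryl hydrocarbon receptor, a ligand-activated transcription factor that pairs with ARNT and drives genes of xenobiotic metabolism, a response for which liver is well known. *BZW2* encodes a mimic of the initiation factor eIF5 that influences start codon selection. *TRA2A*, *IGF2BP3*, *HNRNPA2B1* and *LSM5* encode RNA-binding proteins, which act in splicing, mRNA stability and RNA decay. *CBX3* encodes HP1γ, a reader of methylated histone H3. *TAX1BP1* encodes an autophagy receptor that also restrains NF-κB signalling, *AVL9* a protein with a DENN domain linked to membrane traffic, and *ANLN* anillin, the scaffold of the cytokinetic ring. Head-to-head genes, of which there are 2 pairs among the 10, can share a promoter region.

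Promoter sequence is shown for genes on both sides of the values below: *AHR* and *BZW2*, with the lowest fold changes of the 10, *ANLN*, with the highest, and the single interval that separates *LSM5* from *AVL9*, one of which was lower and the other not. The sequences come from the RefSeq promoter windows of GRCh38.p14 (hg38), each 250 bases before to 50 bases after an annotated start, and only the part outside annotated exons is printed, 5′ to 3′ on the strand of the gene named. Capitals mark GC boxes (GGGCGG, or CCGCCC where the box is on the other strand) and the E-box CACGTG. The *AHR* stretch is chr7:17298506-17298651 on the plus strand, the *BZW2* stretch is chr7:16645931-16646130 on the plus strand, the *ANLN* stretch is chr7:36389612-36389820 on the plus strand, and the *LSM5* stretch is chr7:32495284-32495425 on the minus strand, which read on the plus strand is that of *AVL9*.
AHR: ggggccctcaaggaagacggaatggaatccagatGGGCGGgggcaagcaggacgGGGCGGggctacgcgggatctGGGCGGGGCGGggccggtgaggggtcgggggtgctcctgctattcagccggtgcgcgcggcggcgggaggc
BZW2: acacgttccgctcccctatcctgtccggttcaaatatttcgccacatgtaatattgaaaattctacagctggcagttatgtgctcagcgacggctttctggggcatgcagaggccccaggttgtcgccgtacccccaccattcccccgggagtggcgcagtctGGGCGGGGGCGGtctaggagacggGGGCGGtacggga
ANLN: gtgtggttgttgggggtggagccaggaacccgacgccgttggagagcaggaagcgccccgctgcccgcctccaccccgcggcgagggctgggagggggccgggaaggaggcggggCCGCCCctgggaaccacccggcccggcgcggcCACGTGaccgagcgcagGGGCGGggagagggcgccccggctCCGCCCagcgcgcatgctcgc
LSM5 and AVL9: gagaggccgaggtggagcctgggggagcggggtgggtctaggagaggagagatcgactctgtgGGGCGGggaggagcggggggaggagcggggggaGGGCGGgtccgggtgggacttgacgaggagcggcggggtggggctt

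The *AHR* stretch held 4 GC boxes in 146 bases, the *BZW2* stretch 3 in 200 bases, the *ANLN* stretch 3 in 209 bases and the *LSM5*/*AVL9* interval 2 in 142 bases, with overlapping boxes counted separately. Of the 10 genes, 9 had a window in the RefSeq table. Over whole windows and both strands, GGGCGG occurred in 7 of the 11 windows of these 9 genes, 1 per gene, against 45.0% of all 35116 windows. CACGTG occurred in 3 of the 11 (*AHR*, *ANLN* and *IGF2BP3*), against 7.26% of all windows, and GCGTG, the core bound by the AHR dimer, in 4 of the 11 (*AHR*, *CBX3*, *LSM5* and *TAX1BP1*), against 36.5%. CCAAT occurred in 2 of the 11 (*HNRNPA2B1* and *LSM5*), against 34.6%. None of these motifs contains another, though neighbouring matches can share end bases. TATAAA, present in 11.5% of all windows, occurred in none of the 11. A match is a description of letters and not a measured binding site.

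*AHR* and *BZW2*, between whose starts *TSPAN13* was the only tested gene to start, had the lowest fold changes of the 10. *AHR* (ENSG00000106546.14, chr7:16916359-17346152, plus strand) was counted 5089 and 5782 times in control and 4503 and 4257 times in libraries labelled sgUSP22. The span given is that of the GENCODE annotation, and the RefSeq start beside the stretch printed above, 17298652, lies within it. Both libraries labelled sgUSP22 lay below both controls. After TMM scaling the level of *AHR* was 88.1 ± 6.52 CPM (SD, n = 2) in control and 67.2 ± 1.83 CPM (SD, n = 2) in sgUSP22-labelled libraries, a log2 fold change of −0.39 (SE 0.056), and it decreased by 23.7%. *BZW2* (ENSG00000136261.16, chr7:16646131-16706523, plus strand) had 7804 and 8150 counts in control and 6451 and 6684 in sgUSP22-labelled libraries. Its level went from 129.3 ± 1.88 to 100.9 ± 3.80 CPM (SD, n = 2 each), a log2 fold change of −0.36 (SE 0.042), and again the groups did not overlap. The log2 ratio of *AHR* to *BZW2* counts differed by −0.029 between the groups, with overlapping values. *TSPAN13*, which starts between them, had 1819 and 1959 counts in the controls and 2236 and 2182 counts in the other group, with a log2 fold change of 0.15 (SE 0.064, adjusted p = 0.078). The value of the gene between the pair thus lay on the other side of 0, short of the threshold.

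**Figure D1:**
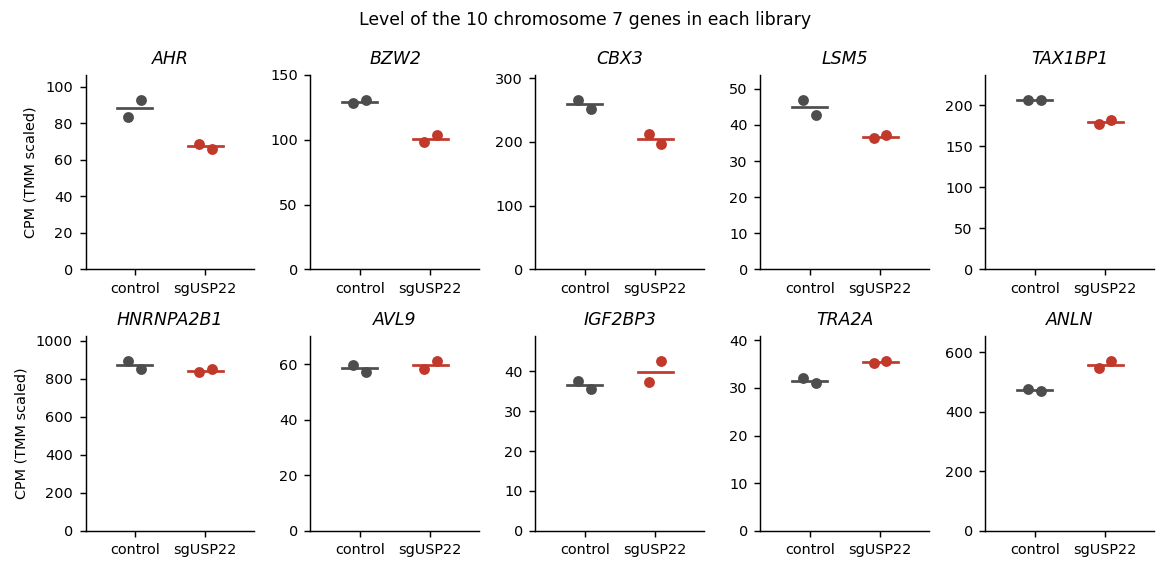
Level in TMM-scaled CPM (y axis, from 0) of each of the 10 genes in the 2 control (grey) and the 2 sgUSP22-labelled (red) libraries, with 1 point per library and a line at the group mean. In the top row both red points lie below both grey points for all 5 genes. In the bottom row the groups overlap for *HNRNPA2B1*, *AVL9* and *IGF2BP3*, and the red points lie above the grey ones for *TRA2A* and *ANLN*.

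*CBX3*, *LSM5* and *TAX1BP1* were the other 3 genes below both controls. *CBX3* (chr7:26201162-26213607, plus strand) had 16201 and 15699 counts in the controls and 13949 and 12679 counts in the libraries labelled sgUSP22. Its level was 259 ± 9.94 CPM (SD, n = 2) in control and 204 ± 11.2 CPM (SD, n = 2) in the other group, a log2 fold change of −0.34 (SE 0.046). *LSM5* (chr7:32485338-32495283, minus strand), which encodes a subunit of the LSM rings that bind U6 snRNA or decaying mRNA, had 2859 and 2666 counts in the controls and 2387 and 2394 counts in the libraries labelled sgUSP22. The log2 fold change of *LSM5* was −0.29 (SE 0.062), and it decreased by 18.1%. *TAX1BP1* (chr7:27739331-27844564, plus strand) had 12594 and 12889 counts in the controls and 11663 and 11738 counts in the other group, with a log2 fold change of −0.20 (SE 0.035). It was the smallest of the 5 decreases, since the level decreased by 13.0%, and its control libraries had an SD of 0.041 CPM.

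The 3 genes whose groups overlapped included the most abundant of the 10. *HNRNPA2B1* (chr7:26171151-26201529, minus strand), a splicing factor and RNA-transport protein, had 54352 and 52976 counts in the controls and 54866 and 54909 counts in the libraries labelled sgUSP22. Its raw counts were higher and its scaled level lower in the libraries labelled sgUSP22, at 843 ± 11.1 against 870 ± 29.9 CPM (SD, n = 2 each), a log2 fold change of −0.046 (SE 0.033) that was 0.0059 when library size alone was used for scaling. *AVL9* (chr7:32495426-32588726, plus strand) had 3637 and 3567 counts in the controls and 3819 and 3938 counts in the other group, with a log2 fold change of 0.028 (SE 0.050). *IGF2BP3* (chr7:23310209-23470491, minus strand), an oncofetal mRNA-binding protein, had 2287 and 2227 counts in the controls and 2454 and 2747 counts in the libraries labelled sgUSP22. Only the second of those 2 libraries lay above both controls after scaling, and the log2 fold change was 0.13 (SE 0.072).

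*TRA2A* and *ANLN* lay above both controls. *TRA2A* (chr7:23504780-23532041, minus strand), a splicing activator of the SR-like family, had 1953 and 1935 counts in the controls and 2321 and 2298 counts in the libraries labelled sgUSP22. Its level was 31.5 ± 0.716 CPM (SD, n = 2) in control and 35.5 ± 0.196 CPM (SD, n = 2) in the other group, a log2 fold change of 0.17 (SE 0.061), or 12.5% more. *ANLN* (chr7:36389821-36453791, plus strand) had 29163 and 29390 counts in the controls and 35992 and 36802 counts in the libraries labelled sgUSP22. The level of *ANLN* went from 475 ± 5.07 to 559 ± 15.8 CPM (SD, n = 2 each), a log2 fold change of 0.24 (SE 0.034), or 17.7% more. It was thus the gene farthest from the description as lowered, and it lies nearest to the centromere of the 10.

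None of the 10 genes reached the 1.5-fold change that, with an adjusted p below 0.05, was required to call a gene. Over all 15150 genes, 7.25% were called lower and 8.88% were called higher. Lack of overlap between groups of 2 libraries was common, since 37.6% of all genes were lower without overlap and 38.3% were higher without overlap, beside 5 and 2 of the 10. The rule used this contrast, and nothing is read from these shares. The median log2 fold change of the 10 was −0.12, against 0.0009 for all genes. *AHR*, the lowest of the 10, still had 18.4% of all tested genes below it, and *ANLN*, the highest, had 70.2% below it. The 10 genes lay at a Euclidean distance of 0.067 to 0.342, on the log2 scale over the 4 libraries, from their own mean profile. The 5 other genes closest to that mean, picked for being closest, were *PLXDC2*, *PRC1*, *STK26*, *JMJD6* and *MRPS11*, at 0.012 to 0.014, and none of them lies on chromosome 7.

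Per length of the annotated transcript, the order of control levels was *HNRNPA2B1* (240 CPM per kb), *CBX3* (125.5 CPM per kb), *ANLN* (100.3 CPM per kb), *BZW2* (71.7 CPM per kb), *TAX1BP1* (60.4 CPM per kb), *LSM5* (20.2 CPM per kb), *TRA2A* (17.7 CPM per kb), *AHR* (14.1 CPM per kb), *IGF2BP3* (8.56 CPM per kb) and *AVL9* (8.36 CPM per kb). The values of *IGF2BP3* and *AVL9* overlapped between the 2 control libraries, and no other neighbours in this order did. In the libraries labelled sgUSP22, *ANLN* stood above *CBX3*, at 118 against 99.2 CPM per kb. The transcript lengths are those of 1 annotated isoform per gene, so the order holds for that choice. The transcripts had a median GC content of 40.2%, against 48.9% for all genes tested.

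Many of the neighbours on the chromosome were lower. Between 10 and 40 Mb, 99 other genes were tested, and 22 of them (22.2%) were called lower and 9 (9.09%) called higher, beside the 7.25% and 8.88% over all genes. The 99 included 16 genes and transcripts of the HOXA cluster, of which 5 (31.25%) were called lower and 1 (6.25%) called higher. The median log2 fold change of the 99 was −0.33, and 69 of them lay below 0, beside 49.9% of all genes. Without overlap, 59 of the 99 were lower and 19 higher, beside the 37.6% and 38.3% over all genes. Among the 33 neighbours at least as abundant as the least abundant of the 10, 26 lay below 0, with a median of −0.27, 4 called lower and 0 called higher. All 6375 tested genes of that abundance had a median of −0.014, with 51.8% below 0, 4.16% called lower and 4.82% called higher. The median was −0.052 for the 70 genes below 10 Mb, −0.089 for the 63 genes from 40 to 60 Mb and −0.019 for the 464 genes beyond 60 Mb. Single 5-Mb windows beyond 60 Mb had medians from −0.25 (34 genes, 75 to 80 Mb) to 0.29 (5 genes, 80 to 85 Mb). Those within the stretch, with the 10 genes included, had medians from −0.39 to −0.16, so the 2 ranges overlapped. The stretch was noticed in these same libraries, so its counts and medians are a description, and neither their difference from the rest of the genome nor that from the 10 genes was tested.

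**Figure D2:**
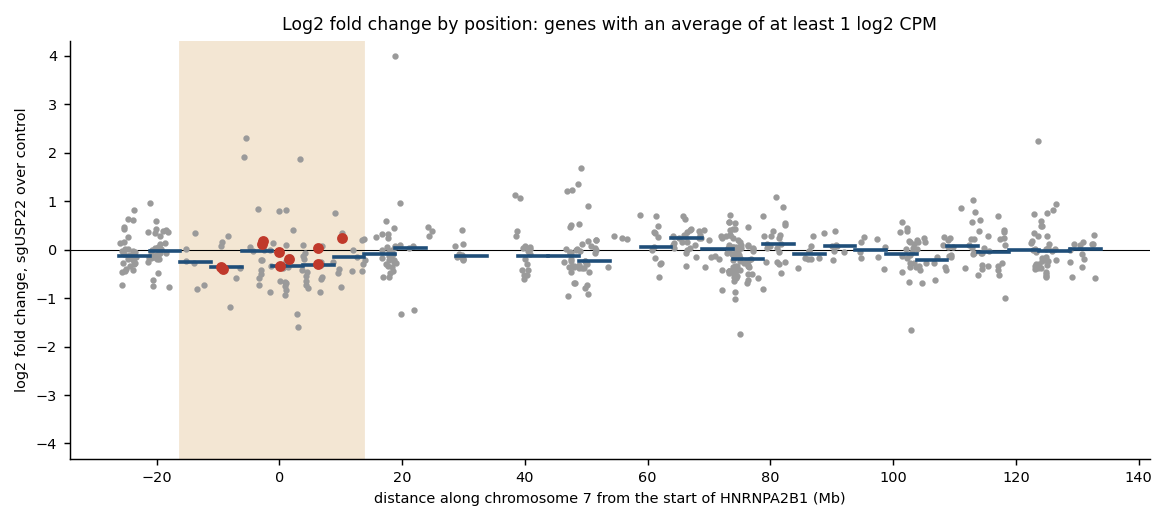
Log2 fold change (y axis, sgUSP22-labelled over control) of genes on chromosome 7 whose average log2 CPM was 1 or more, by distance in Mb from the start of *HNRNPA2B1* (x axis). Grey points are genes, red points are the 10 genes with their SE, blue bars are medians of 5-Mb windows holding at least 5 such genes, and the shaded band is the stretch from 10 to 40 Mb. The blue bars lie below 0 across the band, closest to 0 around *IGF2BP3* and *TRA2A*, with red points on both sides of 0.

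Some neighbours within this stretch moved much further than the 10 genes, and in both directions. Those named here were picked for the largest changes, and all but *CPVL* had a lower control level than any of the 10. *CPVL*, a carboxypeptidase gene, fell by 1.33 on the log2 scale (2512 and 2645 counts in control, 1125 and 1037 in sgUSP22-labelled libraries, SE 0.070, adjusted p = 4.7e-07). *CHN2*, a Rac GTPase-activating protein, fell by 1.60 from 252 and 228 to 97 and 70 counts, and *HDAC9*, a histone deacetylase, fell by 1.17 from 312 and 284 to 152 and 127 counts. *HOXA5*, a homeobox factor, and the noncoding RNA *LINC00997* fell by 0.93 and 0.88. Among genes with an average log2 CPM of 1 or more, the limit used for naming in both directions, the largest increases were those of the zinc finger factor *SP8* (2.30, from 67 and 88 to 401 and 404 counts), the integrin *ITGB8* (1.91, from 359 and 398 to 1532 and 1473 counts) and *PRR15* (1.87, from 142 and 165 to 587 and 601 counts). The cytokine *IL6* and the HOXA noncoding RNA *HOTTIP* rose by 0.84 and 0.81. The called genes of the stretch therefore did not share 1 direction. Among the 33 neighbours at least as abundant as the least abundant of the 10, however, 4 were called lower and 0 higher. The quartiles of their log2 fold changes were −0.43 and −0.017.

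The nearest tested neighbours of the 10 genes were 14 other genes, of which 1 was called lower and 2 called higher, with a median log2 fold change of −0.041. *SNX10*, the endosomal sorting nexin beyond *CBX3*, fell by 0.65 from 914 and 1031 to 665 and 646 counts, or by 0.57 and short of 1.5-fold without the second control library. *NFE2L3*, a CNC-type transcription factor, rose by 0.81 from 831 and 792 to 1527 and 1471 counts (SE 0.086, adjusted p = 3.6e-05). Its annotated span overlaps that of *HNRNPA2B1* on the opposite strand over 15987 bases. *AQP1*, a water channel, rose by 1.34 from 14 and 21 to 57 and 37 counts, and it was not called when any 1 library was left out (1.09 and 1.64 without the first or the second control library), with DESeq2, with no filter or with the replicate block.

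*LSM5* and *AVL9* start on either side of 142 bases, and *CBX3* and *HNRNPA2B1* overlap at their 5′ ends by 368 bases. The log2 ratio of *LSM5* to *AVL9* counts was −0.35 and −0.42 in control and −0.68 and −0.72 in the libraries labelled sgUSP22. The ratio was thus lower in both of the latter, by 0.31 on average, within a pair with annotated starts on either side of the stretch printed above. RefSeq lists a further start of *LSM5* at chr7:32490380, within the gene, and the share of its transcripts from each start was not tested. The log2 ratio of *CBX3* to *HNRNPA2B1* counts was −1.75 and −1.75 in the controls and −1.98 and −2.11 in the libraries labelled sgUSP22, a mean difference of −0.29. These ratios are taken within a library, so scaling between libraries does not enter them. The ratio of *IGF2BP3* to *TRA2A*, by contrast, differed by −0.046, with overlapping values. The overlaps given here are those of annotated gene spans, introns included, and the part within exons was not measured. The counting was not stated to use strand, so reads from overlapping parts of genes may not have been told apart. This holds for *CBX3* and *HNRNPA2B1*, for *NFE2L3* and *HNRNPA2B1* (15987 bases), and for *MALSU1* and *IGF2BP3* (1521 bases). It also holds for *JAZF1* and *TAX1BP1* (13992 bases), for *DPY19L1P1* and *AVL9* (7778 bases), and for *KIAA0895* (*MATCAP2* in GENCODE) and *ANLN* (305 bases). *CBX3* also has pseudogene copies elsewhere in the genome, and how reads shared with them were counted is not given in the sources used here, so its value is uncertain to that extent. Of these partners, *NFE2L3* had a log2 fold change of 0.81, *KIAA0895* of 0.35, *MALSU1* of −0.21, *JAZF1* of −0.15 and *DPY19L1P1*, with 117 counts at most, of −0.62.

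Genes that act with AHR moved in both directions. Of 16 partners and targets on a hand-written list, 13 were tested, 3 were called lower and 2 called higher, with a median of −0.12, where 7.25% and 8.88% of all genes were called. This list and those below were chosen with earlier results of these data known, so nothing is read from their shares. *AHRR*, the repressor that AHR itself induces, fell by 1.22 (SE 0.104, adjusted p = 8.9e-06) from 1980 and 1946 to 802 and 981 counts. *TIPARP*, an ADP-ribosyltransferase and feedback target, fell by 0.82 from 7819 and 8464 to 4909 and 4795 counts, and *NEDD9*, an adhesion scaffold, fell by 0.87 from 4605 and 4902 to 2735 and 2759 counts. *CYP1B1* rose by 1.09 from 60 and 53 to 105 and 149 counts, or by 0.80 and short of the threshold without the second sgUSP22-labelled library, and *ALDH3A1* rose by 0.90 (SE 0.131) from 396 and 329 to 732 and 697 counts. Both encode enzymes of xenobiotic or aldehyde metabolism. *CYP1A1*, the target by which AHR activity is usually read, had 17 and 54 counts in control and 19 and 42 counts in sgUSP22-labelled libraries, too few to show a direction. *ARNT*, the partner subunit, had a log2 fold change of 0.17, below 1.5-fold, beside −0.39 for *AHR*.

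**Figure D3:**
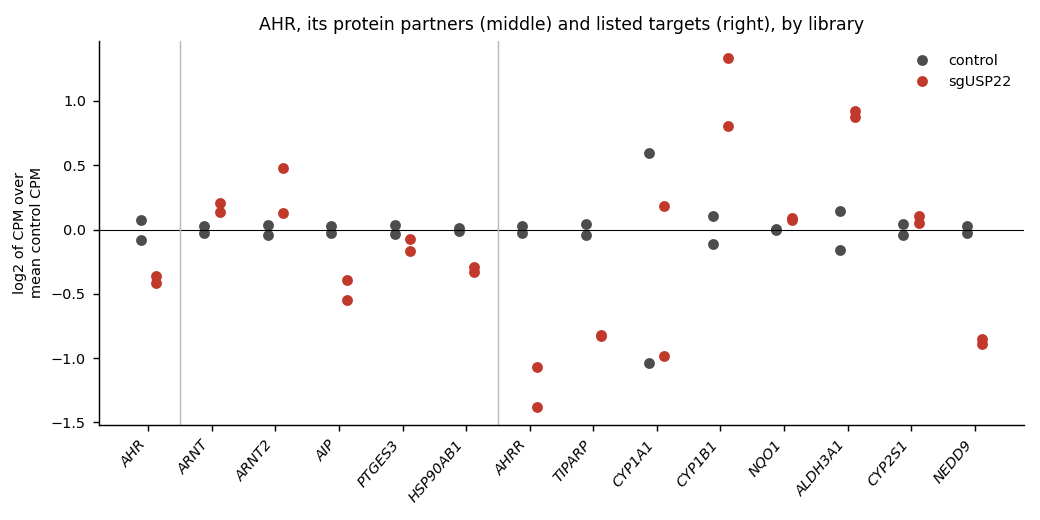
Level of *AHR* (left), its protein partners (middle) and listed targets (right) as log2 of CPM over the mean control CPM (y axis), with 1 point per control (grey) and sgUSP22-labelled (red) library. *AHRR*, *TIPARP* and *NEDD9* lie below the controls by 0.82 to 1.22 on the log2 scale, *CYP1B1* and *ALDH3A1* lie above them, and the 4 values of *CYP1A1* overlap.

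Relatives encoded on other chromosomes gave no common pattern beside the 10 genes. *BZW1*, the close relative of *BZW2*, had 69069 and 69867 counts in control and 76324 and 74263 counts in sgUSP22-labelled libraries, a log2 fold change of 0.037 (SE 0.028) against −0.36 for *BZW2*, and −0.25 once trends with GC content and transcript length were removed. The other HP1 genes, *CBX1* and *CBX5*, had log2 fold changes of −0.066 and 0.11 against −0.34 for *CBX3*. *CBX5* turned to −0.14 with the GC and length trends removed. *TRA2B* lay on the same side as *TRA2A*, at 0.31 (SE 0.045, adjusted p = 0.00031), without reaching 1.5-fold. *IGF2BP1* had 0.14 and *IGF2BP2* −0.33 beside 0.13 for *IGF2BP3*, so the 3 paralogs did not share a direction. *HNRNPA1*, *HNRNPA3* and *HNRNPA0* had −0.16, −0.12 and −0.082, all below the −0.046 of *HNRNPA2B1*. *LSM6* had −0.21 (adjusted p = 0.088) and *LSM3* −0.012 beside −0.29 for *LSM5*. *CALCOCO1*, an autophagy receptor related to *TAX1BP1*, rose by 0.59, at the edge of the 1.5-fold threshold, and *CALCOCO2* had 0.13. The call of *CALCOCO1* was lost without the second control library (0.53) or the first sgUSP22-labelled library (0.56), with RLE factors or a mean of at least 50 counts (both 0.58), and with the GC and length trends removed (0.57). The differences between each gene and its relatives were not tested.

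In the lists for the remaining genes, the called genes were as follows. Of 8 tested start codon selection factors, 0 were called lower and 1 higher: *EIF5*, which BZW2 mimics, rose by 1.41 (SE 0.054, adjusted p = 5.6e-08) from 3799 and 3480 to 10131 and 10281 counts. Of 12 SR proteins, *SRSF5* was the only one called, and it rose by 0.67. Of 16 genes of mRNA methylation and IGF2BP binding, *YTHDF1*, a reader of methylated adenosine, was the only one called, at 0.60, or 0.58 and short of 1.5-fold without the second control library. Of 22 other hnRNP genes, *HNRNPF* was the only one called, and it fell by 0.60. *HNRNPF* fell by 0.54 with library size alone and by 0.58 without the second sgUSP22-labelled library, both short of 1.5-fold. Most of this list nevertheless lay lower: 17 of the 22 (77.3%) without overlap, against 3 (13.6%) higher. The shares over all genes were 37.6% and 38.3%. Values below 0 were found for 18 of the 22, and the list had a median of −0.15. Of 12 HP1 partners, *SUV39H2*, which writes the histone mark that HP1 reads, and the HP1-binding lamin B receptor *LBR* rose by 0.69 and 0.61, and neither reached 1.5-fold (0.51 and 0.41) with the GC and length trends removed.

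Of 11 TAX1BP1 partners, 1 was called lower and 3 higher. *TNFAIP3*, the A20 ubiquitin-editing enzyme that works with TAX1BP1, fell by 0.74 (SE 0.040, adjusted p = 5.7e-07) from 9180 and 9444 to 6089 and 5698 counts. The kinase *TBK1* and the autophagy initiation subunit *RB1CC1* rose by 0.70 and 0.59. With the GC and length trends removed they stood at 0.49 and 0.30 and were not called, and *RB1CC1* also lost its call without the first control library (0.58) or the second sgUSP22-labelled library (0.55). The third increase was that of *CALCOCO1*, given above. Of 22 LSM ring, decapping and U6 partners, 0 were called by edgeR and 0 by DESeq2. Without overlap between the groups, 8 of them (36.4%) were lower and 10 (45.5%) higher, beside 37.6% and 38.3% over all genes. The 17 cytokinesis partners of anillin likewise had 0 called by either tool, with 8 (47.1%) lower and 7 (41.2%) higher without overlap. *SEPTIN7*, an anillin-binding septin that lies on the same stretch of chromosome 7, had a log2 fold change of −0.40, and −0.61 with the GC and length trends removed, against 0.24 for *ANLN*. Of 16 other genes with DENN domains, 1 was called lower (*DENND2B*, −0.82) and 5 higher, with *DENND2C* (1.42) and *DENND5B* (0.90) the largest, while *AVL9* stood at 0.028. Over the 10 lists, 149 genes were tested, 6 were called lower (4.03%) and 15 higher (10.1%), beside the 7.25% and 8.88% over all genes.

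How low the 10 genes stood depended on the treatment of GC content and transcript length. With smooth trends on both removed in each library, *AHR* had a log2 fold change of −0.59 and passed 1.5-fold, the only such case among the 10 in any setting. *CBX3*, *LSM5*, *TAX1BP1* and *HNRNPA2B1* then had −0.54, −0.49, −0.40 and −0.23, and *BZW2* had −0.35. *AVL9* (−0.15) and *IGF2BP3* (−0.027) turned below 0, whereas *TRA2A* (0.10) and *ANLN* (0.049) stayed above it. With this correction 8 of the 10 were below 0, with a median of −0.29, and the median of the 99 neighbours was −0.37. The 10 transcripts are poorer in GC than most, as given above, and which setting is nearer to the cells was not tested.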

How the data were processed

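RNA-seq was measured in 4 libraries, 2 of control and 2 of sgUSP22-labelled cells, all treated with Sorafenib and labelled HepG2, a label that the hepatocyte markers went against. The authors aligned reads to hg38 with HISAT2 2.2.1 and deposited whole-number gene counts made with StringTie 2.2.1, which derives them from coverage. Annotation and strand setting are not given in the sources used here. The 2 samples of a group are not said to come from separate cultures, so p-values measure only the spread between these libraries, which may be technical.

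Columns were matched to samples by name. The tests were run in edgeR 4.0.16 under R 4.3.3 (TMM, filterByExpr with a minimum count of 10, glmQLFit, glmQLFTest, Benjamini-Hochberg adjustment over 15150 genes), and a gene was called where its adjusted p was below 0.05 and its change reached 1.5-fold. DESeq2 1.42.0, the authors' tool, was an alternative, besides removal of GC and length trends (lowess, span 0.3), leaving out each library, scaling by RLE or by library size alone, filters of 1 count or of a mean of 50 counts, and a block for replicate number. The procedure was tested on simulated data. CPM are scaled by TMM. Totals of 62030307 to 64728272 counts leave a limit of 3 counts per library for a gene at 0, for counting error only. Replicates differed by more than counting error, so this limit can be too low. The mean chi-square per gene was 7.30 between the control libraries and 7.60 between those labelled sgUSP22. Positions (gene spans on hg38) and transcript lengths come from GENCODE release 44, in which 25905 of 28278 symbols were matched, and promoter windows from RefSeq.

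The 10 genes and the lists were chosen with earlier results of these data known. Other genes named are *USP22*, paralogs, nearest tested neighbours, the 5 largest called decreases and 5 largest increases of the stretch (average log2 CPM of 1 or more, groups not overlapping), up to 3 called genes per list, the 5 closest profiles, and cell type markers. *TIPARP*, *NEDD9*, *CYP1A1*, *ARNT* and *SEPTIN7* were added after their values were seen.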

Additional observations from a re-analysis of the deposited data

How the results depend on the processing

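Of 110 log2 fold changes of the 10 genes under alternatives, 91 moved by less than 1 replicate SD, 14 moved by more without changing side and 5 changed side. With GC and length trends removed, *IGF2BP3* turned to −0.027 and *AVL9* to −0.15. *AVL9* also ranged from −0.0075 to 0.058 with 1 library left out. *HNRNPA2B1* turned to 0.0059 with library size alone, which raised the median of all genes by 0.052. Among 61 other named genes, *BZW1* (−0.25), *CBX5* (−0.14), *SNX13* (−0.040), *ANKMY2* (−0.014) and *JMJD6* (0.045) changed side with the GC and length trends removed, *LSM3* with library size alone (0.040) and in 1 of the fits without a library (−0.047 to 0.0088), and *CYP1A1* in 2 of the fits without a library (−0.98 to 0.75). The cause was not tested.

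The 15 partner genes called higher became 8 with the GC and length trends removed. The median of the 99 neighbours (−0.33) was −0.27 with library size alone, −0.29 with a mean of at least 50 counts, −0.37 with the GC and length trends removed, and −0.29 to −0.30 with 1 library left out. The counts of all genes called lower (1098) or higher (1345) stayed within 1.5 times under every alternative. With the replicate block, 1100 genes were called lower and 1341 higher, 23 neighbours were called lower and 9 higher, the partner counts were 6 and 15, and no call of a named gene changed but that of *AQP1*. Libraries with the same number did not deviate together (correlation 0.042), so the numbers were not taken as pairs.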
